A study of Mus musculus with 16 samples.

Results

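Universal fibroblast and progenitor markers are a group of 9 genes, Pi16, Dpt, Scara5, Cd34, Ly6a, Clec3b, Dpp4, Thy1 and Lrrc17, which were read by gene symbol from a count table of 49568 genes. All 9 had a row, and all 9 passed the filter on low counts in every comparison. Pi16, Dpt, Scara5 and Cd34 had been chosen by their measured injury or interaction pattern in these same libraries, so their values are given below as a description, without a test. The other 5 genes were tested within fits across all genes.

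The 16 libraries came from deep digital flexor tendon of male mice aged 9 to 11 weeks. The 4 groups of 4 libraries each were uninjured C57BL/6J (C57) tendon, C57 tendon 7 days post injury (dpi), uninjured MRL/MpJ (MRL) tendon and MRL tendon at 7 dpi. Both strains are inbred, and the labels name no engineered allele and no agent for any group. C57 is a common laboratory strain, and MRL is known for healing several tissues with little scarring. The injury was a laceration through 50% of the width of the tendon in a hind paw digit, and each library came from a single tendon. Peritendinous tissue and sheath were left on the tendon, so the libraries hold RNA of tendon, sheath and nearby connective tissue together. Injured libraries are called by their label names, with BI-181 and BI-183 as well as BI-184 and BI-185 for C57, and with BI-270 and BI-272 as well as BI-274 and BI-275 for MRL. Their values are given in this order.

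Universal fibroblasts are a resting fibroblast state found in the connective tissue of many organs, often around vessels and in sheaths and fascia, and they are thought to act as a reserve from which specialised and activated fibroblasts arise. Pi16 and Dpt are their best known markers. Dpp4, Cd34, Ly6a and Thy1 encode surface proteins that are used to sort mesenchymal progenitors, and Scara5, Clec3b and Lrrc17 belong to the genes that such cells often express. None of the 9 is exclusive to fibroblasts. Cd34 and Ly6a are also active in endothelium and blood progenitors, and Thy1 in T lymphocytes and neurons.

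The genes lie on 7 chromosomes of the mouse genome build GRCm38, with positions from GENCODE release M21. Cd34 spans chr1:194938819-194961279 and Dpt chr1:164796644-164824266, both on the plus strand. Pi16 is at chr17:29317680-29330593, Scara5 at chr14:65666403-65764826, Clec3b at chr9:123150946-123157432, Thy1 at chr9:44043384-44048579 and Lrrc17 at chr5:21543559-21575904, again on the plus strand. Dpp4 at chr2:62330073-62412231 and Ly6a at chr15:74994877-74998031 are on the minus strand. Lrrc17 lies inside Fbxl13, which is transcribed from the opposite strand, and the strand setting of the counting is not given in the sources used here, so reads of such partners cannot be told apart. Fbxl13 had 4 to 46 counts per injured C57 library and at most 11 in any other, against 65 to 2351 counts of Lrrc17. Ly6a belongs to a family of closely similar genes, and how reads shared with its relatives were counted is uncertain.

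Promoter sequence was available from RefSeq (GRCm38.p6) for 5 of the 9 genes, namely Pi16, Dpt, Cd34, Dpp4 and Lrrc17. The 250 bases before the RefSeq start are shown for Dpt, Cd34 and Lrrc17, the genes among these 5 that differed between groups and whose window holds almost no annotated exon. Capitals mark matches to any of 5 motifs, searched on both strands, and the sequences run 5′ to 3′ on the strand of the gene.
Dpt, chr1:164796413-164796662, plus strand: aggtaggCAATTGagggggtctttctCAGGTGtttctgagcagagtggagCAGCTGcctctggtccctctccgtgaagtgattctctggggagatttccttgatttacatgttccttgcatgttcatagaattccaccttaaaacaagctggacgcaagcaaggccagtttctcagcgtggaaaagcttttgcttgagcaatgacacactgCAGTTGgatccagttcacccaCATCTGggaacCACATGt
Cd34, chr1:194938571-194938820, plus strand: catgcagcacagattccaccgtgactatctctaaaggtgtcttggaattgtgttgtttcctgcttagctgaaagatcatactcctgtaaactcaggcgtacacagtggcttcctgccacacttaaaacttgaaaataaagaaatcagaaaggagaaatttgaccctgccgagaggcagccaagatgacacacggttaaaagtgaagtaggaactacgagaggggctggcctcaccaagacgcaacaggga
Lrrc17, chr5:21543277-21543526, plus strand: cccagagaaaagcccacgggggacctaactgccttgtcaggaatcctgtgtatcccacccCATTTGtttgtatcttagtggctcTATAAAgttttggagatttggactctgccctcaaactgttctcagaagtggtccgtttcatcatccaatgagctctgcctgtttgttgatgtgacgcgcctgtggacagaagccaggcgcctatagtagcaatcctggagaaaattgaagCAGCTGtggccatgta

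The motifs were the sequence TATAAA for the core promoter box of that name, the sequence GGGCGG for the box bound by Sp factors, the sequence TGANTCA for AP-1, the sequence GGAATG for TEAD factors and the sequence CANNTG for the E-box, with N for any base. Dpt held 6 matches to the E-box, Lrrc17 held 2 and also 1 match to the core promoter box, and Cd34 held none of the 5 motifs. Across 32851 mouse promoters of the same length, 66.2% held the E-box and 12.4% the core promoter box. In the windows not printed, Dpp4 held both of these and the TEAD motif, which 12.6% of promoters held, and Pi16 held none. The Sp and AP-1 motifs, present in 32.7% and 6.75% of promoters, were in none of the 5 windows. A match describes these letters, not a site.

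The libraries held between 12552424 and 23741648 counts on genes, and 3 counts, taken as the floor, were worth 0.126 to 0.241 CPM, the count scaled to a common library total. Every injured MRL library, with at least 18524170 counts, was deeper than every other library, with at most 17832908. The 9 genes together took 0.0708% to 0.331% of a library, and the lowest single value was 20 counts, of Dpp4 in BI-275. The 7 tenocyte markers summed to between 10190 and 32580 CPM, so every library held abundant tendon transcripts. A few libraries stood apart. In uninjured C57 replicate 4, epidermal markers took 7.39% of counts, against at most 0.09% in any other library. In BI-181, skeletal muscle markers took 7.53%, against at most 0.23% elsewhere. Uninjured MRL replicate 4 had a higher rank correlation with uninjured C57 replicate 2 (Spearman's rho 0.964) than with any library of its own group (at most 0.941). Its Cd34 (229.3 CPM) and Thy1 (5.79 CPM) levels lay within the range of uninjured C57 tendons, and its Dpt level (169.3 CPM) lay above that range. The reason was not tested.

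Pi16, a secreted or membrane-anchored protein of the CAP family, was the gene of the 9 with the widest range. It was at 11.75, 5.18, 3.63 and 6.06 CPM in uninjured C57 replicates 1 to 4, and at 205.7, 357.8, 109.8 and 382.3 CPM in injured C57 tendons. In MRL it was at 2.45, 1.95, 36.05 and 3.21 CPM in uninjured replicates 1 to 4, and at 1.64, 12.06, 61.18 and 12.75 CPM in injured tendons. Every injured C57 tendon was above every library of the other 3 groups, whose ranges overlapped. The description by fold change was 38.3-fold higher in injured than in uninjured C57 tendon (log2 fold change 5.26, SE 0.539) and a log2 fold change of 1.00 (SE 1.18) in MRL. The MRL value rested on single libraries: it was -0.30 without BI-274 and 3.10 without uninjured replicate 3. Injured MRL tendons were lower than injured C57 tendons by a log2 fold change of -3.62 (SE 0.979), which was -4.88 without BI-274. Between uninjured tendons the log2 difference, MRL minus C57, was 0.69 (SE 0.94), and it was -1.40 without uninjured MRL replicate 3 and -0.63 (SE 1.05) with the replicate number as a block. Among all genes, Pi16 stood at the 36.4th percentile of mean CPM in uninjured C57 tendon and at the 97.1st in injured C57 tendon, and at the 45.4th and 58.9th in MRL.

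Scara5, a scavenger receptor that takes up ferritin, had the same order at the top. Its levels were 24.11, 29.67, 19.75 and 8.36 CPM in uninjured C57 replicates 1 to 4 and 99.33, 129.8, 116.4 and 223.3 CPM in injured C57 tendons. In MRL they were 27.17, 28.77, 45.54 and 17.2 CPM in uninjured replicates 1 to 4 and 33.9, 12.7, 33.98 and 6.57 CPM in injured tendons. All 4 injured C57 tendons were above all other libraries, and the other 3 groups overlapped. Injured C57 tendons were 6.74-fold above uninjured ones (log2 fold change 2.75, SE 0.403), while the log2 fold change in MRL was -0.44 (SE 0.489). At 7 dpi the difference between strains, MRL minus C57, was -2.73 (SE 0.514).

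Dpt encodes dermatopontin, an extracellular matrix protein that binds decorin and collagen. It was at 98.51, 85.39, 76.28 and 75.25 CPM in uninjured C57 replicates 1 to 4 and at 118.2, 181.8, 147.8 and 178 CPM in injured C57 tendons. Uninjured MRL tendons had 107.2, 151.9, 190.6 and 169.3 CPM in replicates 1 to 4, and injured ones 67.01, 48.2, 104.6 and 92.53 CPM. The groups thus fell into 2 levels that crossed over, with injured C57 and uninjured MRL tendons overlapping at the upper level and uninjured C57 and injured MRL tendons overlapping at the lower. Injury went with a log2 fold change of 0.85 (SE 0.179) in C57 and of -0.98 (SE 0.259) in MRL, with no overlap between injured and uninjured libraries in either strain. The difference of these effects, MRL minus C57, was -1.89 (SE 0.334).

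Cd34, a surface sialomucin of progenitors and endothelium, was at 329.6, 333.6, 331.1 and 205.1 CPM in uninjured C57 replicates 1 to 4 and at 431.4, 623.5, 470.7 and 565.7 CPM in injured C57 tendons. Uninjured MRL replicates 1 to 4 had 669.1, 726.8, 746.4 and 229.3 CPM, and injured MRL tendons 397.6, 311, 474.4 and 233.7 CPM. Uninjured and injured C57 tendons did not overlap, whereas in MRL replicate 4 fell below the whole injured group and the groups overlapped. The log2 fold change with injury was 0.76 (SE 0.216) in C57 and -0.74 (SE 0.346) in MRL, or 0.62 in C57 without uninjured replicate 4 and -0.99 in MRL without uninjured replicate 4. The 8 endothelial markers, none of them at 0 throughout a group, summed to 19.91 to 98.11 CPM in uninjured and 120.2 to 196.3 CPM in injured C57 tendons, and to 1.99 to 80.03 CPM in uninjured and 1.51 to 32.07 CPM in injured MRL tendons. Their part in the levels of Cd34 was not tested. In bulk tissue, fewer cells of a type and less RNA per cell cannot be told apart, for this gene and for the other 8.

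**Figure D1:**
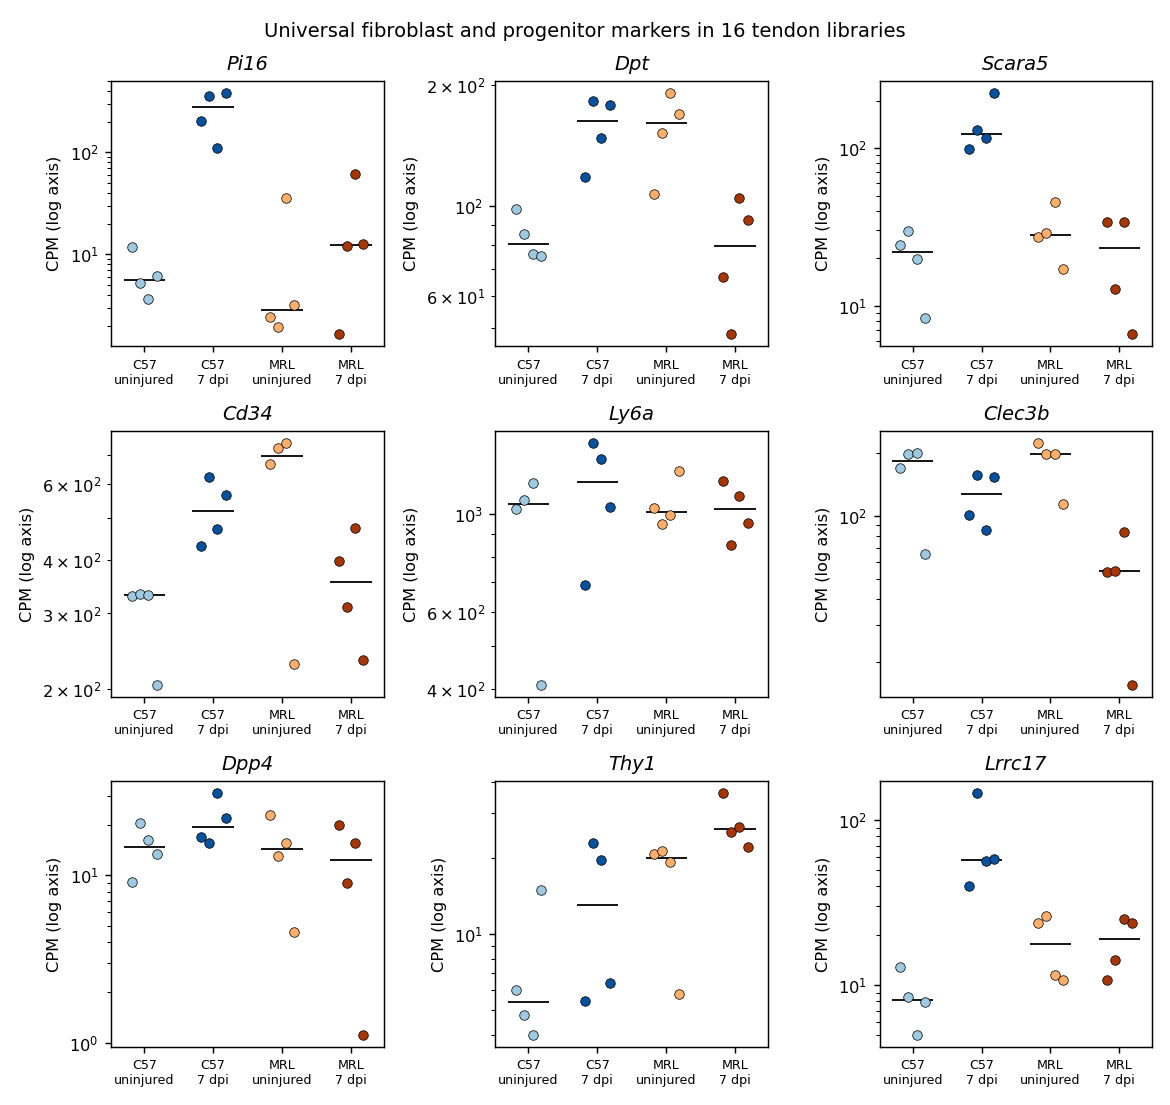
CPM (log axis) of each of the 9 genes in the 16 libraries, 1 panel per gene, with 4 points per group in library order and a line at the median. Pi16, Scara5 and Lrrc17 are at their highest in all 4 injured C57 tendons, and Clec3b is at its lowest median in injured MRL tendons.

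Lrrc17, a secreted leucine-rich repeat protein known to restrain osteoclast formation, rose with injury in C57 tendon and was the 1 gene called there among the 5 that were tested. It was at 12.83, 8.42, 5.01 and 7.92 CPM in uninjured C57 replicates 1 to 4 and at 40.03, 144.9, 56.4 and 57.91 CPM in injured C57 tendons. In MRL it was at 23.86, 26.18, 11.58 and 10.77 CPM in uninjured replicates 1 to 4 and at 10.67, 14.28, 25.08 and 23.72 CPM in injured tendons. Injured C57 tendons were above all other libraries, with BI-183 far above the other 3, and both MRL groups overlapped almost completely. The rise in C57 was 8.43-fold (log2 fold change 3.08, SE 0.457, adjusted p = 0.0217 by edgeR's quasi-likelihood test with Benjamini-Hochberg adjustment over all genes). A call required an adjusted p under 0.05 together with a log2 fold change beyond 1 in either direction, and 1.07% of 14424 genes were called in this comparison. Injured libraries that were all higher were found for 7.42% of genes and for Lrrc17 as 1 of the 5 tested members. All 4 picked genes had them too, but they were picked for their injury or interaction pattern, so that share is no measure for them. No member had all injured C57 libraries lower, as 4.17% of genes did. In MRL the log2 fold change was 0.03 (SE 0.383, adjusted p = 0.966 by edgeR).

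The Lrrc17 call in C57 was sensitive to single libraries while its size was not. The adjusted p by edgeR was 0.0585, 0.0896 and 0.0832 without uninjured replicates 1, 2 and 3, 0.0548 without BI-184 and 0.0677 without BI-185, with log2 fold changes of 2.89 to 3.33. Without BI-183 the log2 fold change was 2.58 and the adjusted p 0.0495. The 8 macrophage markers, none at 0 throughout a group, summed to 718 to 1537 CPM in uninjured and 4307 to 7925 CPM in injured C57 tendons, and to 901 to 1493 and 3497 to 6246 CPM in MRL. The sum did not overlap between injured and uninjured tendons of either strain, and the part of these cells in Lrrc17 was not tested.

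At 7 dpi Lrrc17 was 4.14-fold lower in MRL than in C57 tendon (log2 fold change -2.05, SE 0.427, adjusted p = 0.0281 by edgeR), with no overlap. In this comparison 3.43% of 14626 genes were called, and MRL libraries were all lower for 7.58% of genes. The call was lost without BI-183 (adjusted p 0.0532), BI-185 (0.0618), BI-270 (0.0669), BI-272 (0.0974) or BI-275 (0.06), and the log2 fold change without BI-183 was -1.52. The difference between the injury effects of both strains was -3.10 (SE 0.617), with an unadjusted p of 0.000126 and an adjusted p of 0.333 by edgeR over 15947 genes. That fit called 0% of genes, although 1939 had an unadjusted p under 0.05. DESeq2 called 212 genes, Lrrc17 among them at an adjusted p of 0.000539. Without uninjured C57 replicate 4, uninjured MRL replicate 4 and BI-181 the edgeR difference was -3.46, with an adjusted p of 0.0925.

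Clec3b encodes tetranectin, a secreted protein that binds plasminogen, and it fell with injury in MRL tendon. Its levels in uninjured MRL replicates 1 to 4 were 223.2, 198.3, 198.9 and 114.3 CPM, and in injured MRL tendons 54.07, 54.59, 84.01 and 15.53 CPM. In C57 they were 170.3, 197.7, 201 and 65.49 CPM in uninjured replicates 1 to 4 and 101.5, 157.7, 85.64 and 153.1 CPM after injury. All injured MRL tendons were below all uninjured MRL and all injured C57 tendons, and the C57 groups overlapped through replicate 4. The fall in MRL was 3.52-fold (log2 fold change -1.82, SE 0.414, adjusted p = 0.021 by edgeR). Among 14274 genes 7.41% were called in MRL and 9.44% had all injured libraries lower, and Clec3b was the 1 tested member of 5 in both counts.

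The Clec3b call was lost by small margins when libraries were left out. Its adjusted p by edgeR was 0.062, 0.0544 and 0.0543 without uninjured MRL replicates 1, 2 and 3, 0.0519 without BI-270 and 0.0587 without BI-272, with log2 fold changes of -1.85 to -1.71. It was 0.00807 without BI-275, the lowest library, where the log2 fold change was -1.51. Keeping genes with low counts in the fit also ended the call (adjusted p 0.0891). In C57 the log2 fold change was -0.39 (SE 0.351, adjusted p = 0.646 by edgeR), and -0.64 without uninjured replicate 4. The difference between the strains' injury effects was -1.47 (SE 0.59, adjusted p = 0.358 by edgeR). Injured MRL tendons had all 4 values below injured C57 tendons, with a log2 difference of -1.29 (SE 0.431) that missed the threshold in edgeR (adjusted p = 0.128) and passed it in DESeq2 (adjusted p = 0.0398).

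Ly6a encodes Sca-1, a small surface protein of stem and progenitor cells, and was the most abundant of the 9. Its levels were 1029, 1080, 1181 and 408.9 CPM in uninjured C57 replicates 1 to 4 and 691.1, 1452, 1334 and 1039 CPM in injured C57 tendons. Uninjured MRL replicates 1 to 4 had 1034, 949.7, 993.7 and 1257 CPM, and injured MRL tendons 1189, 849.7, 1098 and 956 CPM. All 4 groups overlapped, and the lowest values were those of uninjured C57 replicate 4 and BI-181. These libraries had the highest shares of epidermal and of muscle markers, whose part in the Ly6a levels was not tested. The log2 fold change with injury was 0.24 (SE 0.352, adjusted p = 0.8) in C57 and -0.04 (SE 0.168, adjusted p = 0.897) in MRL by edgeR. Without uninjured C57 replicate 4 the C57 value was 0.00.

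Dpp4, a surface peptidase that trims chemokines and hormones, was low in every group. Uninjured C57 replicates 1 to 4 had 9.07, 20.6, 16.2 and 13.47 CPM, and injured C57 tendons 16.92, 15.71, 30.93 and 22.14 CPM. In MRL the levels were 23, 12.98, 15.64 and 4.58 CPM in uninjured replicates 1 to 4 and 20.08, 8.98, 15.56 and 1.11 CPM after injury. The groups overlapped throughout, and BI-275 had the lowest value of all libraries. The log2 fold change was 0.48 (SE 0.328, adjusted p = 0.527) in C57 and -0.29 (SE 0.698, adjusted p = 0.823) in MRL by edgeR, and the MRL value was 0.09 without BI-275.

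Thy1 encodes CD90, a surface glycoprotein of fibroblasts, and its levels were highest in injured MRL tendon. It was at 35.92, 25.35, 26.53 and 22.1 CPM there and at 20.68, 21.34, 19.22 and 5.79 CPM in uninjured MRL replicates 1 to 4. In C57 it was at 6.04, 4.79, 4.01 and 14.94 CPM in uninjured replicates 1 to 4 and at 5.46, 22.8, 19.58 and 6.39 CPM after injury. The MRL groups did not overlap, as was the case with injured libraries higher for 13.5% of genes. The injured C57 tendons split into a low and a high pair that reached into the other groups. The log2 fold change was 0.72 (SE 0.367, adjusted p = 0.228) in MRL and 0.79 (SE 0.615, adjusted p = 0.582) in C57 by edgeR, and the C57 value was 1.41 without uninjured replicate 4. Injured MRL minus injured C57 tendon was 1.00 (SE 0.447, adjusted p = 0.235 by edgeR), the 1 positive difference among the 9 genes. No member was higher in all injured MRL than in all injured C57 tendons, as 8.27% of genes were. The 8 T lymphocyte markers summed to 0 to 11.94 CPM in uninjured and 4.47 to 10.38 CPM in injured C57 tendons. In MRL they summed to 0.199 to 2.39 CPM in uninjured and 4.96 to 8.39 CPM in injured tendons. The 11.94 CPM was in uninjured C57 replicate 4, which also had the highest Thy1 level of its group. Cd3e, Cd3g and Cd3d were at 0 in all uninjured C57 libraries, Cd5 in all injured C57 and Cd8a in all uninjured MRL ones. The part of these cells in Thy1 was not tested.

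**Figure D2:**
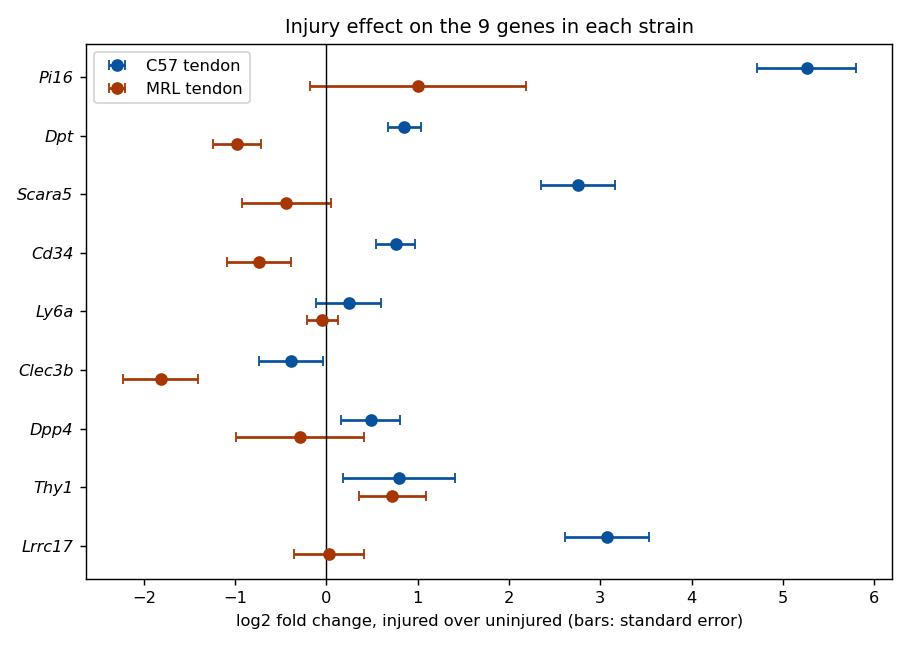
Log2 fold change of injured over uninjured tendon for the 9 genes in C57 and in MRL, with bars for 1 standard error from the edgeR fit within each strain. The C57 points lie to the right of the MRL points for all 9 genes. Pi16, Dpt, Scara5 and Cd34 were picked for their injury or interaction pattern. None of the differences of the other 5 genes passed the adjusted threshold in edgeR. The widest gaps are those of Pi16 (5.26 against 1.00), Scara5 (2.75 against -0.44) and Lrrc17 (3.08 against 0.03).

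Read across the 5 tested genes, the log2 fold change with injury was lower in MRL than in C57 for all 5, and none of these differences passed the adjusted threshold in edgeR. The adjusted p-values other than those of Lrrc17 and Clec3b were 0.788 for Ly6a, 0.752 for Dpp4 and 0.968 for Thy1. The sign for Thy1 turned when single libraries were left out, with values from -0.74 to 0.23 around -0.13. Without uninjured C57 replicate 4, uninjured MRL replicate 4 and BI-181 together it was -1.29 (SE 0.51, adjusted p = 0.407 by edgeR). The differences described for the 4 picked genes were -4.31 (SE 1.49) for Pi16, -3.25 (SE 0.693) for Scara5, -1.89 for Dpt and -1.55 (SE 0.443) for Cd34. That for Pi16 was -2.20 without uninjured MRL replicate 3 and -5.62 without BI-274.

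Between uninjured tendons of the strains, edgeR called 0% of 14055 genes and hence none of the 5 tested members, with 1106 genes at an unadjusted p under 0.05, while DESeq2 called 101 genes and none of the 5. Lrrc17 and Thy1 had the largest differences of these 5, with log2 fold changes, MRL minus C57, of 1.05 (SE 0.409, adjusted p = 0.621) and 1.12 (SE 0.55, adjusted p = 0.649). That for Thy1 was 1.75 without uninjured C57 replicate 4. The values were 0.18 for Ly6a, 0.19 for Clec3b and -0.11 for Dpp4. No tested member was higher and no member lower in all MRL tendons, as 3.14% and 1.91% of genes were. Of the picked genes, Dpt was higher in all MRL tendons (log2 fold change 0.86, SE 0.193), while Cd34 had 0.96 (SE 0.348) with overlapping groups.

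Levels can be compared between genes only per length, here as mean CPM per kilobase of exon sequence. On that scale Ly6a was highest in every group, with 767.5 in uninjured and 936.9 in injured C57 tendons and 878.6 and 849 in MRL. Clec3b came next, with 159.9 and 125.5 in C57 and 185.2 and 52.47 in MRL, except that in injured MRL tendons it was close to Cd34 (48.58) and Dpt (45.3). Pi16 moved from 1.05 in uninjured C57 tendons, the lowest of the 9, to 41.47 in injured ones, while it had 1.72 and 3.44 in MRL. Lrrc17 and Scara5 had 20.73 and 23.34 in injured C57 tendons, and Dpp4 and Thy1 stayed between 1.81 and 9.17 in all groups.

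**Figure D3:**
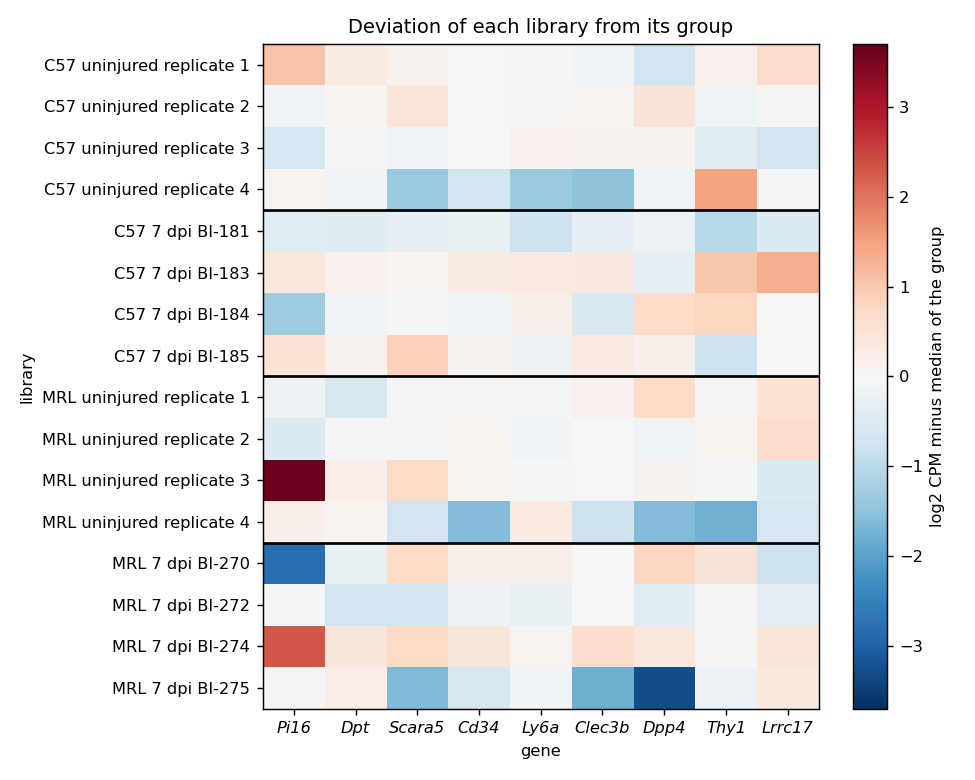
Deviation of each library from the median of its group for the 9 genes, in log2 CPM, with libraries in rows and genes in columns. BI-181 is below its group median for all 9 genes and BI-274 above for all 9, and uninjured MRL replicate 3 is 3.63 above for Pi16.

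Of the 16 libraries, 7 lay on 1 side of their group median for at least 7 of the 9 genes, 4 for 6 genes and 5 for 5 genes. BI-181 was below the median of injured C57 tendons for 9 of 9 genes and BI-183 above for 8. In injured MRL tendons BI-274 was above for 9 and BI-272 below for 8. Uninjured C57 replicate 4 was below for 7, with Scara5, Ly6a and Clec3b lower by 1.37, 1.37 and 1.49 on the log2 scale and Thy1 higher by 1.45. BI-275 combined a Dpp4 value 3.28 below the median with a Lrrc17 value 0.36 above it.

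Over the 16 libraries, 30 of the 36 pairs of these genes had a positive Pearson correlation of log2 CPM, with a median of 0.34. The highest were those of Pi16 with Lrrc17 (0.76) and with Scara5 (0.739), which share the high level in injured C57 tendons. After subtracting group means the Pi16 correlations were 0.234 and 0.192, and 26 of 36 pairs were positive. The highest within groups was that of Scara5 with Clec3b (0.849). Both genes of a pair are read in the same libraries, which differ in depth and tissue make-up, so these values are a description and no test was made.

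The genes with the most similar pattern over the 16 libraries were sought among 9352 genes with a mean of at least 10 CPM. For Pi16 they were Tcn2 (Pearson's r 0.909), the fibril-associated collagen gene Col14a1 (0.904) and the basement membrane gene Nid1 (0.88). Col14a1 had means of 3.21 and 34.18 CPM in uninjured and injured C57 tendons and 1.73 and 5.75 CPM in MRL. For Scara5 they were Selenop (0.938), Mgst1 (0.922) and C1qc (0.918), and for Lrrc17 Cald1 (0.831), Tep1 (0.828) and the macrophage mannose receptor gene Mrc1 (0.812). Dpt was closest to Hfe (0.828), the elastic fibre gene Fbln5 (0.794) and Med23 (0.761), and Cd34 to Fcgrt (0.851), Arap1 (0.851) and the matrix protease gene Mmp2 (0.845).

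Clec3b was closest to Ltbp4 (0.936), Tnxb (0.933) and Sept4 (0.93). Ltbp4 and Tnxb encode matrix proteins, and their mean levels in injured MRL tendons were 82.49 and 84.93 CPM, against 275.4 to 483.8 CPM in the other groups. Thy1 was closest to Tspan6 (0.921), Spon2 (0.914) and Mlec (0.885), all with their highest mean in injured MRL tendons. Dpp4 was closest to Cyp4f13 (0.875), Git1 (0.873) and Trim8 (0.869), with rank correlations of only 0.588, 0.365 and 0.606. For Ly6a the values of Emp1 (0.921), Medag (0.92) and Tnpo1 (0.901) became 0.796, 0.767 and 0.691 without uninjured C57 replicate 4.

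A list of 30 other universal fibroblast and progenitor markers, drawn up with the results for the 9 genes known, was read in the same fits. In injured tendons 10 of the 26 tested were called lower in MRL than in C57 and none higher, with a median log2 fold change of -1.33 against -0.06 over all genes, of which 3.43% were called in either direction. The largest were those of Efhd1 (-3.75, SE 0.481), which encodes a calcium-binding mitochondrial protein, and Cd248 (-3.23, SE 0.66), which encodes the stromal surface protein endosialin. Entpd2, an ectonucleotidase gene, had -2.95 (SE 0.695), and Gpx3, the gene of secreted glutathione peroxidase, had -2.91 (SE 0.308). Leaving out 1 library left 4 to 8 called lower, with 5 without BI-183, 5 without BI-185, 6 without BI-270, 4 without BI-272 and 6 without BI-275. In the same comparison 2 of 8 endothelial markers, 2 of 7 mural markers and 3 of 8 macrophage markers were called lower in MRL, with median log2 fold changes of -2.95, -3.24 and -0.97. Of the 5 tested Schwann cell markers (median -3.46) and the 4 synovial lining markers (median -1.96) 1 each was called lower and all were negative, while all 7 tenocyte markers were positive (median 0.95) with 1 called higher. The summed CPM of the 4 lining markers overlapped, with 6435 to 14010 in injured C57 and 5803 to 12080 in injured MRL tendons. The part of these cell types was not tested.

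**Figure D4:**
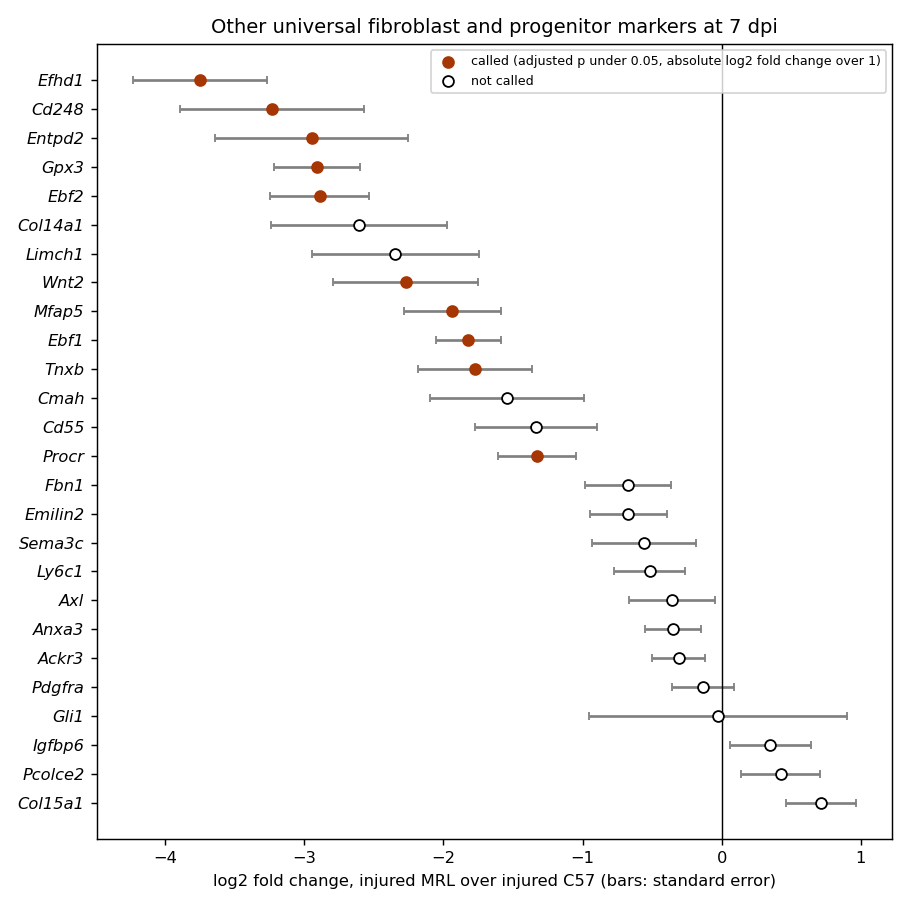
Log2 fold change of injured MRL over injured C57 tendon for the 26 tested genes among the other universal fibroblast and progenitor markers, with bars for 1 standard error. The 10 called genes, shown filled, all lie below -1, and 3 of the 26 genes lie above 0.

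With injury itself, 1 of 27 tested genes of this list was called in C57, where 1.07% of all genes were. It was Mfap5 (log2 fold change 3.05, SE 0.568), a microfibril gene. It was called higher in MRL too (1.83, SE 0.35). Leaving out uninjured C57 replicate 4 gave 6 called higher and 4 called lower in C57, leaving out any other library gave 0 or 1 called higher, and DESeq2 gave 10 higher and 1 lower. In MRL 7 of 26 were called, with 4 higher and 3 lower, where 7.41% of all genes were called. In the same fit 2 of 4 synovial lining markers were called lower (median -1.35) and 4 of 8 macrophage markers higher (median 1.12). The summed CPM of the 4 lining markers overlapped, with 5185 to 10310 in uninjured and 5803 to 12080 in injured MRL tendons. In C57, 5 of 8 macrophage markers (median 1.99) and 1 of 7 mural markers (median 1.66) were called higher, and all 8 endothelial markers were positive with none called (median 1.73). The part of these cell types was not tested. Among the list's genes called in MRL, Emilin2 (2.01, SE 0.303), Anxa3 (1.40, SE 0.223) and Mfap5 rose, and Tnxb (-2.51, SE 0.386), the gene of the matrix protein tenascin-X, fell. Without uninjured MRL replicate 1, 2 or 4 or without BI-272, 1 gene was called lower. The median was 0.83 in C57 and -0.18 in MRL, against -0.05 and -0.03 over all genes. With 1 library left out it was 0.48 to 1.03 in C57, lowest without BI-184, and -0.23 to -0.11 in MRL.

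Activated fibroblast markers, a list of 12 genes drawn up in the same way, were read beside them. In C57 Postn, the gene of the matricellular protein periostin, was the 1 gene called (log2 fold change 6.91, SE 1.25). It had 63 to 140 counts per uninjured and 916 to 28447 per injured C57 library. Without uninjured replicate 1, 2 or 3, BI-183, BI-184 or BI-185, 0 genes of the list were called higher in C57, and DESeq2 called 5 higher and 1 lower. In MRL 5 were called higher and Ncam1 lower, with 0 called lower without BI-275. The shares of all genes called in these comparisons were 1.07% in C57 and 7.41% in MRL. The rises were those of Tnc (6.67, SE 0.659), Cthrc1 (6.14, SE 0.424), Adam12 (5.76, SE 0.883), Lrrc15 (5.27, SE 0.899) and Col12a1 (1.14, SE 0.239), which encode matrix proteins, a metalloprotease and a surface protein of activated fibroblasts. Lrrc15 and Adam12 had at most 16 and 18 counts in an uninjured MRL library and 0 in at least 1, so they passed the filter through the injured tendons and their fold changes are imprecise. Tnc and Cthrc1 had 6 to 40 and 12 to 24 counts per uninjured MRL library, so their fold changes also start from low counts. The median was 1.54 in C57, with 1.24 to 2.71 when 1 library was left out and the highest without uninjured replicate 1, and 1.34 in MRL, with 1.10 to 1.49. At 7 dpi, where 3.43% of all genes were called, Col12a1 and Col8a1 were called higher in MRL and Acta2, the smooth muscle actin gene that mural cells also express, lower (-3.38, SE 0.672). Leaving out any single injured library other than BI-274 gave 0 or 1 called higher, and Acta2 was the 1 called lower with 0 left without BI-185, BI-270, BI-272, BI-274 or BI-275.

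Family relatives of the 9 genes numbered 22, and 18 were tested within each strain. None was called in C57 by edgeR, where 1.07% of all genes were called, and 4 were called higher in MRL, where 7.41% were. These were the scavenger receptor gene Msr1 (log2 fold change 3.24, SE 0.317), the CAP family gene Glipr1 (3.14, SE 0.602), the Ly6 family gene Ly6e (1.86, SE 0.264) and Glipr2 (1.31, SE 0.171). Glipr1 had only 8 to 58 counts per uninjured MRL library, against 228 to 496 per injured one. Of 23 genes for binding partners and processing enzymes, Itgb2, the gene of a leukocyte integrin chain, was called higher in both strains, with 2.35 (SE 0.442) in C57 and 2.32 (SE 0.318) in MRL. Mmp2 (1.76, SE 0.336) was also called in C57, and 4 more in MRL were Cxcr4 (4.11, SE 1.05), Fn1 (1.68, SE 0.411), Itgam (1.23, SE 0.279) and Tgfb1 (1.07, SE 0.252). Cxcr4 had 0 to 6 counts per uninjured MRL library against 38 to 103 per injured one, so it passed the filter through the injured tendons and its fold change is imprecise. Msr1, Itgb2 and Itgam are known as genes of macrophages and other leukocytes. Of the 8 macrophage markers, 5 were called higher in C57 and 4 in MRL, with all 8 positive in both strains, and the part of these cells was not tested. No gene of either list was called lower with injury, and these 2 lists were not refitted without single libraries.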

How the data were processed

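RNA-seq of 16 flexor tendon libraries was deposited by the authors as 1 table of whole-number counts per gene symbol, without normalization. Their processing notes and methods name Trimmomatic 0.36, STAR 2.5.2b in two-pass mode, Subread 1.5.0p3 and DESeq2 1.14.1 on single-end reads and GRCm38. The annotation and strand setting are not given in the sources used here. The methods describe pre-amplified libraries and the labels another kit, so which was used is uncertain, and counts without molecular identifiers carry more than counting error.

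Groups came from the labels. The count totals set the floor of 3 counts. Each strain (8 libraries), the uninjured libraries and the injured libraries were fitted apart with edgeR 4.0.16 in R 4.3.3 (expression filter, TMM factors, robust quasi-likelihood test, Benjamini-Hochberg adjustment over all tested genes), and the strain by injury interaction over all 16. Calls needed an adjusted p under 0.05 and, except for the interaction, an absolute log2 fold change over 1. Standard errors were derived from each log2 fold change and its F value. CPM used TMM-adjusted totals, with a prior count of 2 for log2 CPM. The self-test ran on simulated data first. Alternatives were DESeq2 1.42.0, RLE factors, total counts, no filter, a replicate block, and leaving out libraries.

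The members and lists were chosen with earlier results of these data known. The genes named were the 9 members, the 3 most similar genes of each, and at most 4 called genes with the largest change per list and comparison; others named besides were chosen after their values were seen. Of the other marker list, 29 of 30 genes were analysed here.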

Additional observations from a re-analysis of the deposited data

Results flagged for a closer look

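Of 36 gene and group combinations 5 held 1 library whose distance to the next exceeded Dixon's 95% limit for 4 values, where chance gives about 1 in 20. Pi16 was at 36.05 CPM in uninjured MRL replicate 3, with 1.95 to 3.21 CPM in the other 3. Cd34 was at 205.1 CPM in uninjured C57 replicate 4, with 329.6 to 333.6 CPM in the others, and at 229.3 CPM in uninjured MRL replicate 4, with 669.1 to 746.4 CPM in the others. Thy1 was at 5.79 CPM in the same MRL library, with 19.22 to 21.34 CPM in the others. Lrrc17 was at 144.9 CPM in BI-183, with 40.03 to 57.91 CPM in the other injured C57 tendons.

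For Dpt and Cd34 every injured C57 tendon was above the mean log2 CPM of uninjured C57 tendons and every injured MRL tendon below that of uninjured MRL tendons. The difference between the injury effects was -1.89 for Dpt and -1.55 for Cd34 on the log2 scale. It was not tested, because both genes were picked for this pattern.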

How the results depend on the processing

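Replacing TMM by RLE factors or by total counts changed no call among the members and no direction, and total counts moved the median of all genes to -0.14 in the interaction and -0.20 between injured strains. DESeq2 called more genes, with 909 in C57, 1818 in MRL, 212 in the interaction, 101 between uninjured and 1488 between injured tendons, and it called 1 tested member in the interaction (Lrrc17) and 2 between injured tendons (Lrrc17 and Clec3b). Without the filter 1 gene was called between uninjured tendons and 0 tested members in MRL. The causes were not tested.

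When 1 library was left out, the genes called were 10 to 750 in C57 (155 with all), 689 to 1260 in MRL (1057), 231 to 481 between injured tendons (502), 0 to 3 between uninjured tendons (0) and 0 in all 16 interaction fits. C57 uninjured replicate 4 gave the 750. Tested members called were 0 to 1 in C57, in MRL and between injured tendons. Signs turned for uncalled values near 0, between -0.14 and 0.061 for Ly6a, -0.72 and 0.089 for Dpp4 and -0.15 and 0.27 for Lrrc17 in MRL injury, between -0.74 and 0.23 for Thy1 in the interaction, and between -0.058 and 0.32 for Ly6a, -0.054 and 0.37 for Clec3b and -0.44 and 0.20 for Dpp4 between uninjured tendons.

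Uninjured libraries of both strains share replicate numbers in the labels but come from different animals, and the correlation of same-numbered deviations was -0.19, -0.03, -0.10 and -0.24. Under the replicate block 0 genes were called between uninjured tendons, as without it, but the Pi16 difference, described without a test, turned from 0.69 to -0.63. The lowest count of a member was 20, for Dpp4 in BI-275.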
